A study of Mus musculus with 12 samples.

Results

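The interferon-stimulated effector genes code for antiviral proteins that cells make in answer to interferon. Their transcripts were followed here in whole mouse embryos with a defect in Acd, p53 or both genes. The set holds 36 listed genes. A gene was measured through every probe set that names it as its single gene symbol, and where several did, the one with the greatest average signal across all 12 arrays stood for it. By that rule 34 of the 36 genes had a probe set, out of 18193 genes on the array. Isg15 and Ifi44 had no probe set under their symbol alone and were not analysed as genes.

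The series holds 4 genotypes with 3 arrays each: wild type (wt), Acdacd/acd (acd), p53-/- (p53) and Acdacd/acd, p53-/- (double). All were whole embryos of embryonic day E10.5, and every array was made from 250 ng of RNA. Acd codes for TPP1, which belongs to the telomere cap known as shelterin. The transcription factor p53 stops or kills cells whose DNA is damaged. The labels call the replicates biological and do not describe either allele, the strain or the litters. Litter and embryo therefore cannot be told apart, and p-values measure the spread between these samples. A whole embryo mixes all its tissues, and in such RNA fewer cells of a type and less RNA per cell cannot be told apart.

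Interferons are secreted proteins that bind receptors on neighbouring cells and act through Jak kinases on a complex of factors with Stat2 and Irf9 among them, which binds the interferon-stimulated response element in promoters. The genes switched on in this way block virus entry, degrade or sequester foreign RNA, tag proteins with the ubiquitin-like protein Isg15 and attack the membranes of vacuoles that hold parasites. Interferon gamma acts at another element, the gamma-activated site, and drives the immunity-related and guanylate-binding GTPases in particular.

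Promoter sequence does not depend on the arrays, but the list of genes does. It was drawn up of interferon-induced genes with earlier results of these data known. The shares below therefore describe the list and are no separate test of it. The RefSeq promoter table (GRCm38.p6, 250 bases before to 50 after each start) held 27 of the 36 genes. The core of the response element, GAAA and GAAA with any 2 bases between them, was searched on both strands with overlapping matches allowed. It was found in the promoter of 13 of these 27 genes (48.1%) and of 1079 of the 27025 genes of the table (3.99%), or 3.44% of the 32851 promoters. The core of the gamma-activated site, TTC and GAA with any 3 bases between them, was found in 6 of the 27 genes (22.2%) and in 9.55% of all genes. In Bst2 and in Ifitm3 a match to each core shared bases with the other. A match is a description of the letters and not a measured binding site.

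The 200 bases before the start are shown for 8 genes of 3 roles (RNA-binding, membrane and GTPase effectors) whose promoters hold the response element core there, with every match in capitals. They were chosen to set the position of the core beside the values reported for the same genes. Where the capitals read TTTC first, the match lies on the other strand.
Ifit1: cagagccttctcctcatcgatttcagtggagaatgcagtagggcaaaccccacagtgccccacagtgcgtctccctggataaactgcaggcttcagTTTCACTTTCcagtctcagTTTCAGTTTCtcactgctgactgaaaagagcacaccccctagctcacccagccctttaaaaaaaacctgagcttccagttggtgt
Ifit3: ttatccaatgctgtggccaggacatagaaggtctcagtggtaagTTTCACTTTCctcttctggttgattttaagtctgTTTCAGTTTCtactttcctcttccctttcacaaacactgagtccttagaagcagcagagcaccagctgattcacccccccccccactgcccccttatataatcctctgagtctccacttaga
Oas1a: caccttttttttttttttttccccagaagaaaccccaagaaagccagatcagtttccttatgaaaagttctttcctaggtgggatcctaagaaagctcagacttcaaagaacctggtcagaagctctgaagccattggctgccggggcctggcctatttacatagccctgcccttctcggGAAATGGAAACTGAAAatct
Rsad2: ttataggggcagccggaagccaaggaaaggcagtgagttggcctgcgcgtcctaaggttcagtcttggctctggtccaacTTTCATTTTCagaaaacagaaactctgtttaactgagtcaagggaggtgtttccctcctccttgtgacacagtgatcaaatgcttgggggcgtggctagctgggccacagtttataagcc
Bst2: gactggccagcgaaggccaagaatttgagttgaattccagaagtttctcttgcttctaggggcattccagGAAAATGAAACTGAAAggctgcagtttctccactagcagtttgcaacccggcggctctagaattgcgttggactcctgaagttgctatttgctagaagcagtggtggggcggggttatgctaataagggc
Gbp2: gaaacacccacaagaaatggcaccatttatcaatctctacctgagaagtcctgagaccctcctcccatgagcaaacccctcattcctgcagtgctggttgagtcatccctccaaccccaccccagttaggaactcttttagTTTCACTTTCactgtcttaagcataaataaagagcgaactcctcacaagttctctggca
Igtp: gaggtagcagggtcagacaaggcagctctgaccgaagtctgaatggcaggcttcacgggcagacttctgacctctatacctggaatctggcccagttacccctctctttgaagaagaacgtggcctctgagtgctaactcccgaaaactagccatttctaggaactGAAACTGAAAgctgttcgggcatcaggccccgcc
Irgm1: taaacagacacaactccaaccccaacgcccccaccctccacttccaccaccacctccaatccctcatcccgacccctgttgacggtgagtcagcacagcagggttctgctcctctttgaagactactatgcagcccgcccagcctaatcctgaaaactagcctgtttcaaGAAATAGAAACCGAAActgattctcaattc
The stretches lie, in that order, at chr19:34640689-34640888 on the plus strand, chr19:34583329-34583528 on the plus strand, chr5:120907526-120907725 on the minus strand, chr12:26456453-26456652 on the minus strand, chr8:71537473-71537672 on the minus strand, chr3:142620463-142620662 on the plus strand, chr11:58199356-58199555 on the plus strand and chr11:48871421-48871620 on the minus strand. The nearest matches began close to the start in Oas1a (20 and 14 bases before it) and Irgm1 (30 and 24 bases), and in both genes, as in Bst2, the 2 matches overlap and read as 1 block. In Ifit3 the 2 matches were apart, beginning 156 and 122 bases before the start, and in Ifit1 they began 104 and 85 bases before it.

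Values are log2 intensities after robust multi-array averaging, with array medians of 5.32 to 5.4. Because each probe set binds with its own strength, levels are not compared between genes. The Acd probe set was lower in acd embryos (8.27, 8.31 and 8.22) than in wt embryos (9.0, 8.99 and 8.99), a log2 difference of -0.73 ± 0.08 (SE, n = 3 and 3, limma adjusted p = 0.0113). It read 8.44, 8.42 and 8.24 in double embryos and 8.84, 8.85 and 9.05 in p53 embryos. All 10 markers of midgestation embryo tissues, such as Sox2 of the neural tube and Myl7 of the heart, lay above the array median in all 12 arrays. Double replicates 1 and 2 stood apart from the rest, with median correlations to the rest of 0.972 and 0.987, while no other array fell under 0.995. By Y-linked transcripts replicate 1 was male and replicates 2 and 3 were female. The difference between 3' and 5' Actb probe sets, a sign of RNA quality, was 0.48 and 0.39 in double replicates 1 and 2 and 0.37 to 0.51 in the other 10 arrays. For Gapdh it was 0.01 and 0.16, against 0.04 to 0.20.

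The effector genes were high in 2 of the 3 double mutant embryos and near the other genotypes in the third. In 33 of the 34 measured genes, double replicates 1 and 2 both lay above all other 10 arrays, a pattern that 10.3% of the 18193 genes showed. In 26 of the 34, both lay at least 1 log2 unit above the highest of the other 10 arrays, against 0.44% of all genes. These 26 were among only 80 genes on the array with that margin. In no gene of the set did both lie below the other 10, against 9.58% of all genes. In 19 of the 34 genes all of the other 10 arrays were below the array median, where a value above background is not shown, so averages and medians over genes mix sizes with such bounds. Averaged over the 34 genes, the value minus the wt mean was 3.32 in double replicate 1, 2.92 in replicate 2 and 0.16 in replicate 3. In the other 9 arrays the same average ran from -0.04 to 0.21.

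**Figure D1:**
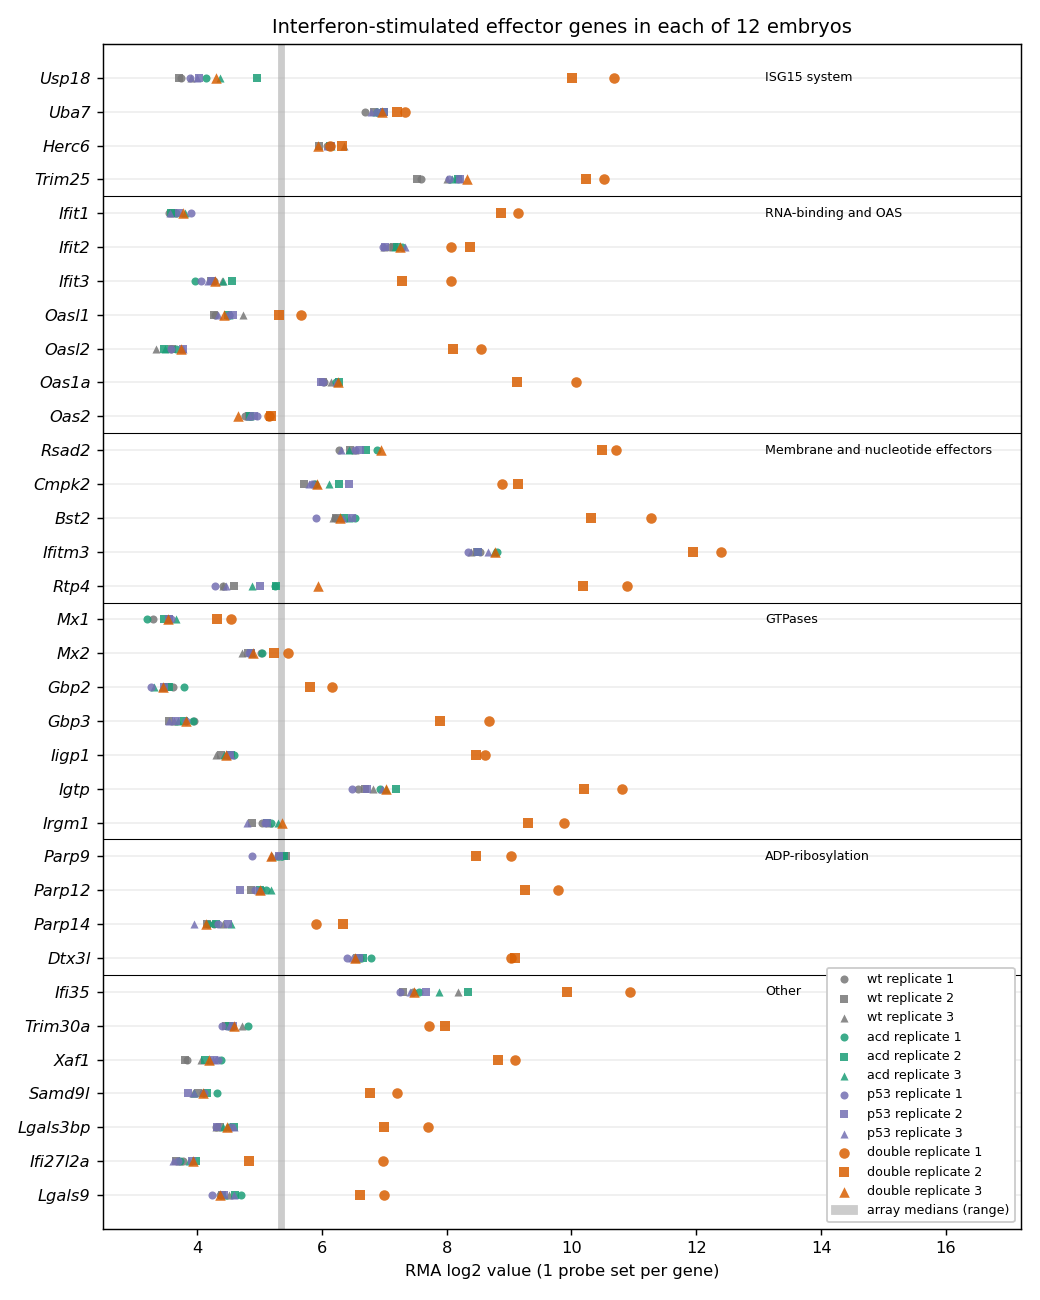
Log2 value of each of the 34 measured effector genes (rows, ordered by role) on every array; colour gives the genotype, shape the replicate and the grey band the range of array medians. The 2 double mutant points far to the right in most rows are replicates 1 and 2. In most rows the double point of replicate 3 lies among the other genotypes. It lies above them in Rtp4, Rsad2, Trim25 and Irgm1 and below them in Herc6 and Oas2. Levels are not comparable between rows.

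Test results over the 3 embryos of each genotype depended on this spread. In a limma fit of all 12 arrays, 0 of the 22 effector genes that passed the filter on low values reached an adjusted p under 0.05 between double and p53 embryos, beside 0.00741% of the 13501 genes tested. At an unadjusted p under 0.05, 20 of the 22 were higher in double embryos, against 5.07% of all genes tested. The median log2 difference of the 22 was 2.13, with -0.0089 over all genes tested, and all 22 differences were positive (0.01 to 4.42). The other 12 measured genes did not enter this test, since they exceeded the 40th percentile of an array in fewer than 3 arrays. Those 12 (Ifit1, Ifit3, Oasl2, Mx1, Gbp2, Gbp3, Iigp1, Parp14, Xaf1, Samd9l, Lgals3bp and Ifi27l2a) include genes with very high values in double replicates 1 and 2. So a count over the 22 is not a count over the set. Among the 22, Usp18, Oasl1, Trim30a and Lgals9 passed the filter only with the help of double replicates 1 and 2. Counts over the 22 that rest on high values in those arrays are therefore in part set by the filter.

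Without double replicate 3, limma gave an adjusted p under 0.05 to 21 of the 22 genes, all higher in the remaining double embryos than in p53 embryos, where 6.83% of all genes tested were called higher. Herc6 was the exception. With no filter on low values and without that array, a fit chosen after seeing the data, 33 of the 34 genes were called higher, against 5.64% of 18193 genes. Against acd and wt embryos that count was also 33 of 34, beside 5.91% and 5.0%. With double replicates 1 and 2 left out instead, 0 of 22 were called, beside 0.207% of all genes, and their median log2 difference was 0.09. That value compares a single double embryo with 3 p53 embryos and takes its spread from the other genotypes. These fits describe which arrays carry the difference and do not treat replicates 1 and 2 as a group of the design.

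Double embryos were also set against acd and wt embryos, which share the double arrays with the comparison above. Against acd, 0 of 22 genes were called (0.0% of all genes) with a median log2 difference of 2.01, and 21 of 22 differences were positive. Against wt, 0 of 22 were called (0.0148% of all genes) with a median of 2.16 and again 21 of 22 positive. At an unadjusted p under 0.05, 19 and 20 genes were higher, beside 6.32% and 4.69% of all genes tested. Without double replicate 3, the same count of 21 of 22 genes was called higher in each, beside 7.38% and 6.13%. The interaction of both defects, which asks whether the change with acd differs when p53 is absent, called 0 of 22 genes (0.0% of all genes), with a median of 1.97, and 11 of 22 were positive at an unadjusted p under 0.05, against 2.46% of all genes. Without double replicate 3 it called 18 of 22 in the positive direction, against 2.53% of all genes. Herc6, Mx2, Oas2 and Uba7 were not among them. With no filter and without that array, a fit chosen after seeing the data, it called 29 of 34, against 2.25%. The fits without double replicate 3 again describe which arrays carry the difference and are no test of the interaction over the design.

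Complete separation of the genotypes was seen in fewer genes than the pattern of replicates 1 and 2. All 3 double arrays lay above all 3 p53 arrays in 13 of 34 genes (3.81% of all genes), above all acd arrays in 5 (4.48%) and above all wt arrays in 17 (5.24%). The 5 genes above acd were Rsad2, Oasl2, Trim25, Rtp4 and Irgm1. In 0 genes of the set did all 3 double arrays lie below those of p53 (4.61% of all genes), acd (6.26%) or wt (7.02%). With arrays weighted by their agreement, limma called 16, 18 and 20 of 22 genes higher in double embryos than in p53, acd and wt embryos, against 0.696%, 7.27% and 6.13% of all genes, and 0 for the interaction (0.0%). The weights were estimated from the same values, so these counts are not separate from the fits without double replicate 3. The median against p53 was then 2.73, between 2.13 with equal weights and 3.17 without double replicate 3.

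The Isg15 system attaches and removes the Isg15 protein. Usp18, the protease that removes Isg15 and also dampens the interferon receptor, had values of 3.74, 3.72 and 3.91 in wt, 4.15, 4.97 and 4.37 in acd, 3.89, 4.03 and 4.0 in p53 and 10.68, 10.01 and 4.30 in double embryos. Double replicates 1 and 2 were far above every other array, and replicate 3 lay inside the range of acd embryos. Trim25, a ligase that can carry Isg15 and activates the RNA sensor Rig-I, had 7.59, 7.53 and 8.0 in wt, 8.19, 8.19 and 8.09 in acd, 8.04, 8.22 and 8.20 in p53 and 10.52, 10.23 and 8.32 in double embryos. All 3 double values exceeded those of the other genotypes, with a log2 difference from p53 of 1.54 ± 0.42 (SE, limma adjusted p = 0.463). Uba7, the enzyme that activates Isg15, had 6.69, 6.83 and 6.94 in wt, 6.88, 6.99 and 6.87 in acd, 6.89, 6.99 and 6.79 in p53 and 7.33, 7.21 and 6.97 in double embryos. Its difference from p53 on this probe set was 0.28 ± 0.10 (SE, limma adjusted p = 0.463). The other 2 Uba7 probe sets gave larger mean differences, 0.89 and 1.23, so the size depends on the probe set.

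Herc6, the mouse ligase that joins Isg15 to its targets, was the single gene of the 34 without the pattern on the probe set used. That probe set read 6.13, 6.32 and 5.94 in double embryos and 5.96 to 6.36 in the other 9 arrays, and the log2 difference from p53 was 0.01 ± 0.11 (SE, limma adjusted p = 0.971). Its other 3 probe sets each placed double replicates 1 and 2 above all other arrays. One of them, at 5.52 and 5.44 against 4.20 to 4.72, had the widest margin. The probe sets of Herc6 therefore disagreed. Over all 53 probe sets of the 34 genes, 51 had replicates 1 and 2 on top, and the other exception was a weaker probe set of Parp14.

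RNA-binding effectors and oligoadenylate synthetases recognise viral RNA. Ifit1, which binds RNA with a foreign cap, had 3.56, 3.61 and 3.63 in wt, 3.66, 3.59 and 3.81 in acd, 3.91, 3.71 and 3.57 in p53 and 9.14, 8.87 and 3.78 in double embryos. Its baseline was below the array median, so its difference has no size here. Oasl2, a synthetase-like protein, likewise had 3.58, 3.6 and 3.35 in wt, 3.67, 3.47 and 3.49 in acd, 3.58, 3.78 and 3.78 in p53 and 8.55, 8.10 and 3.75 in double embryos. Oas1a makes the oligoadenylates that switch on RNase L. It had 6.04, 6.02 and 6.15 in wt, 6.23, 6.28 and 6.24 in acd, 6.02, 5.98 and 6.22 in p53 and 10.07, 9.13 and 6.26 in double embryos. The double minus p53 difference of Oas1a was 2.41 ± 0.68 (SE, limma adjusted p = 0.463), with double replicate 3 above the p53 arrays and within those of acd. Ifit3, a partner of Ifit1, read 8.07, 7.28 and 4.29 in double embryos and 3.97 to 4.56 elsewhere. Ifit2, an RNA-binding partner of Ifit1 and Ifit3, was above the array median in all arrays, at 8.07, 8.38 and 7.25 against 6.98 to 7.34. Oas2, another synthetase, was at 5.16, 5.18 and 4.66 against 4.77 to 4.96.

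Membrane and nucleotide effectors were also high in both embryos, in all 5 genes of the class. Over these 5 genes the value minus the wt mean averaged 4.55, 4.14 and 0.50 in the double embryos. Bst2, or tetherin, holds budding virus particles at the cell surface. It had 6.21, 6.23 and 6.18 in wt, 6.54, 6.35 and 6.44 in acd, 5.91, 6.48 and 6.34 in p53 and 11.27, 10.31 and 6.29 in double embryos. Replicates 1 and 2 of double stood alone, and the difference from p53 was 3.05 ± 0.91 (SE, limma adjusted p = 0.463). Rsad2, or viperin, makes a nucleotide that ends viral RNA chains. It had 6.27, 6.45 and 6.53 in wt, 6.88, 6.71 and 6.44 in acd, 6.54, 6.62 and 6.30 in p53 and 10.72, 10.49 and 6.95 in double embryos. All 3 double values of Rsad2 exceeded the other 9, the third by little, and the difference from p53 was 2.90 ± 0.73 (adjusted p = 0.463). Cmpk2, the nucleotide kinase encoded next to Rsad2, read 8.88, 9.15 and 5.93 in double embryos and 5.72 to 6.44 in the others. Ifitm3, which blocks fusion of virus with endosomes, read 12.39, 11.95 and 8.78 against 8.34 to 8.80.

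Rtp4 codes for an interferon-induced chaperone of membrane receptors. It had 4.41, 4.6 and 4.42 in wt, 5.25, 5.26 and 4.89 in acd, 4.29, 5.01 and 4.47 in p53 and 10.89, 10.19 and 5.94 in double embryos. On this probe set every double value lay above every other array, and every acd value above every wt value. The wt, acd and p53 values were below the array median, so no size is given, and without double replicates 1 and 2 the limma adjusted p against p53 was 0.0977. The weaker of the 2 Rtp4 probe sets read 4.87, 4.35 and 3.38 in double embryos and 3.18 to 3.73 in the other 9 arrays. There replicate 3 lay among the other genotypes and acd and wt arrays overlapped, so the probe sets disagreed on both points. Rtp4, Rsad2, Trim25 and Irgm1 were the 4 of 34 genes with double replicate 3 above all 9 wt, acd and p53 arrays, against 8.17% of all genes. Of their several probe sets, 2 of 3 of Rsad2, 2 of 3 of Trim25 and 1 of 2 of Rtp4 showed this. Herc6 and Oas2 were the 2 with replicate 3 below all 9, against 13.2%. Replicate 3 minus the wt mean had a median of 0.08 over the 34 genes.

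**Figure D2:**
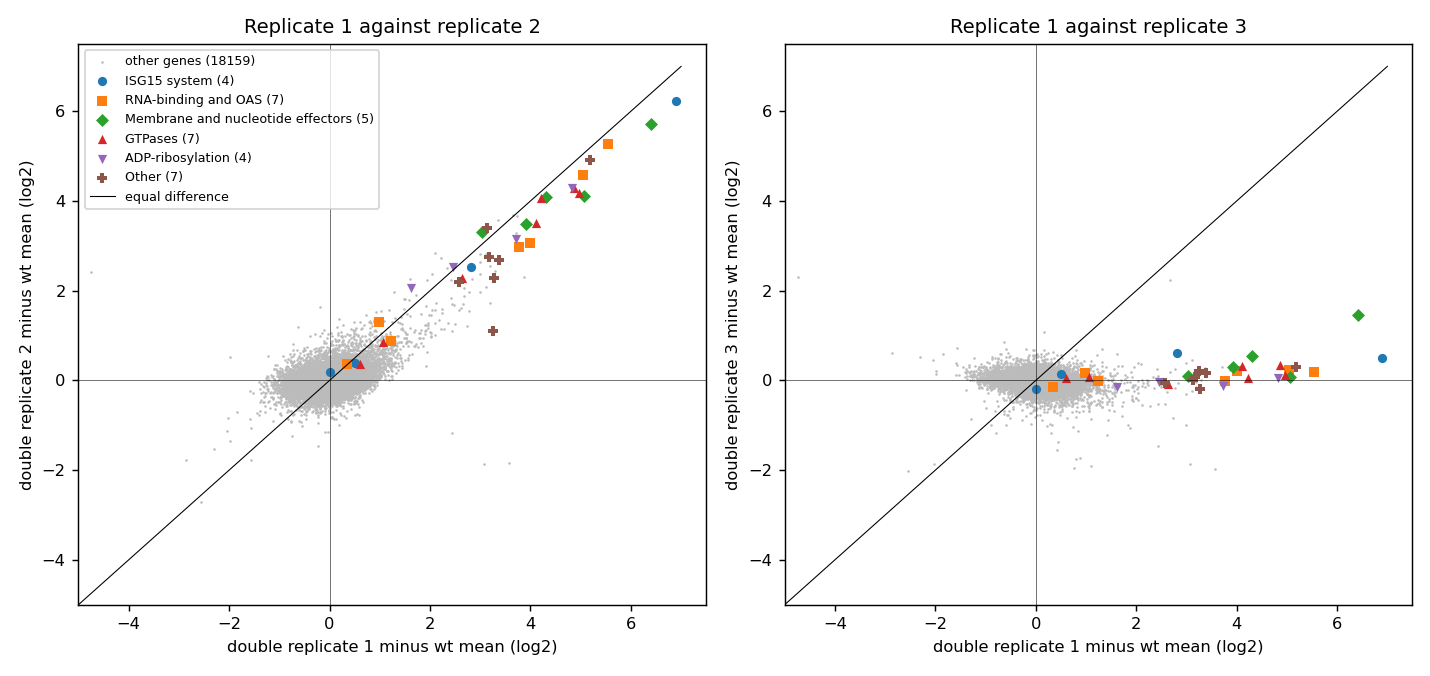
Value minus the wt mean (log2) of every effector gene, coloured by role, with double replicate 1 on the x axis and replicate 2 (left) or replicate 3 (right) on the y axis; grey points are all other genes and the line marks equal differences. In replicates 1 and 2 the effector genes spread along the diagonal, while in replicate 3 they lie near 0, with a median of 0.08.

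The GTPases of the set pull apart viral capsids or the vacuoles of parasites. Irgm1, a regulator of this machinery, had 5.04, 4.88 and 5.15 in wt, 5.18, 5.12 and 5.3 in acd, 5.09, 5.12 and 4.80 in p53 and 9.88, 9.31 and 5.37 in double embryos. Gbp3, a guanylate-binding protein, had 3.96, 3.55 and 3.64 in wt, 3.94, 3.80 and 3.69 in acd, 3.83, 3.67 and 3.55 in p53 and 8.68, 7.89 and 3.83 in double embryos. Iigp1, which loads onto parasite vacuoles, had 4.51, 4.38 and 4.31 in wt, 4.59, 4.54 and 4.44 in acd, 4.49, 4.53 and 4.55 in p53 and 8.62, 8.47 and 4.46 in double embryos. In all 3 genes only double replicates 1 and 2 were far from the remaining arrays. Igtp, a GTPase of the same family whose baseline was above the array median, read 10.81, 10.20 and 7.03 in double embryos. In the other genotypes Igtp ran from 6.48 to 7.19, and the double minus p53 difference was 2.62 ± 0.70 (SE, limma adjusted p = 0.463). Gbp2 followed with 6.17, 5.81 and 3.45 against 3.26 to 3.80. For the Mx proteins, which block viral replication, Mx1 read 4.54, 4.32 and 3.54 against 3.20 to 3.67, and Mx2 read 5.46, 5.23 and 4.90 against 4.72 to 5.05.

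ADP-ribosylation genes add or read ADP-ribose on proteins. Parp12, a transferase that acts against viral translation, had 5.03, 4.86 and 4.99 in wt, 5.10, 5.01 and 5.19 in acd, 4.93, 4.69 and 5.02 in p53 and 9.79, 9.26 and 5.01 in double embryos. Parp9 and Dtx3l form a pair that joins ADP-ribose and ubiquitin chemistry. Parp9 had 5.3, 5.42 and 5.21 in wt, 5.36, 5.39 and 5.31 in acd, 4.89, 5.31 and 5.19 in p53 and 9.03, 8.47 and 5.18 in double embryos. Dtx3l had 6.61, 6.57 and 6.54 in wt, 6.79, 6.66 and 6.60 in acd, 6.41, 6.60 and 6.48 in p53 and 9.03, 9.10 and 6.54 in double embryos, a difference of 1.73 ± 0.50 (SE, limma adjusted p = 0.463) from p53 embryos. Double replicate 3 was inside the range of the other genotypes in these 3 genes. Parp14, a large transferase of the same family, read 5.91, 6.34 and 4.15, against 3.96 to 4.54, on the probe set used.

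The remaining effectors have varied roles. Xaf1, a factor that favours cell death and is linked to p53 in other settings, read 3.84, 3.81 and 4.07 in wt, 4.39, 4.13 and 4.21 in acd, 4.34, 4.28 and 4.25 in p53 and 9.09, 8.82 and 4.20 in double embryos. Trim30a, which restrains innate signalling, had 4.56, 4.46 and 4.72 in wt, 4.81, 4.52 and 4.55 in acd, 4.4, 4.58 and 4.51 in p53 and 7.72, 7.97 and 4.59 in double embryos. Samd9l, which inhibits translation, had 4.10, 4.02 and 3.93 in wt, 4.32, 4.16 and 3.95 in acd, 4.11, 3.85 and 3.96 in p53 and 7.20, 6.78 and 4.09 in double embryos. In these 3 genes double replicates 1 and 2 were above all others and replicate 3 among them. Ifi35, a partner of Nmi, was already variable between embryos, at 7.25 to 8.35 in the other genotypes, and read 10.93, 9.93 and 7.47 in double embryos. Lgals3bp, a secreted glycoprotein, read 7.70, 7.0 and 4.48 against 4.30 to 4.6. Lgals9, a galectin that binds sugars on immune cells, read 7.0, 6.61 and 4.37 in double embryos and 4.24 to 4.7 elsewhere.

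The 2 high embryos were not equal. Replicate 1 was above replicate 2 in 27 of the 34 genes, against 56.0% of all genes, with a median difference of 0.38. Ifi27l2a, a small membrane protein, had the widest gap, at 6.98 in replicate 1 and 4.83 in replicate 2. The reverse order was seen in Herc6, Ifit2, Oas2, Cmpk2, Parp14, Dtx3l and Trim30a, with Parp14 lowest at -0.43.

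**Figure D3:**
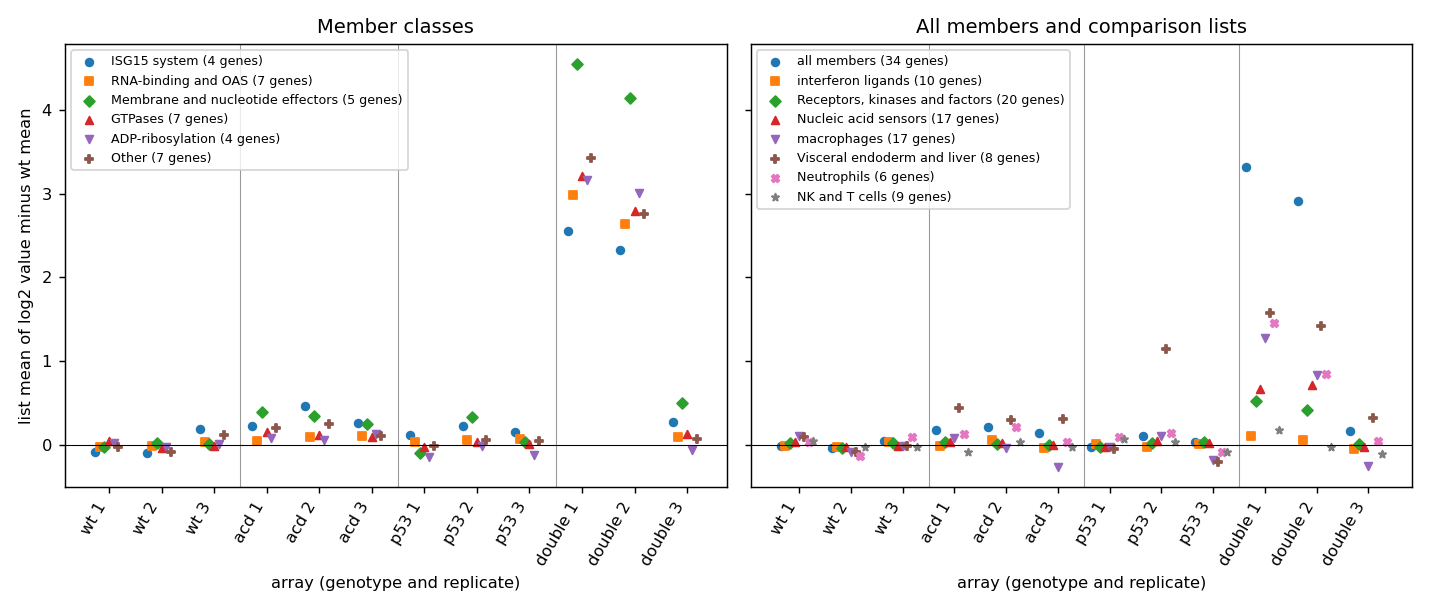
Mean over each gene list of the value minus the wt mean (log2), by array (x axis); colour and shape give the list, with the effector roles on the left and all effector genes beside comparison lists on the right. The mean over all effector genes reaches 3.32 and 2.92 in double replicates 1 and 2 and 0.16 in replicate 3; the mean over interferon ligands is 0.10, 0.06 and -0.05 in the double arrays, and macrophage markers reach 1.28 and 0.84.

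The acd embryos were compared with wt embryos, which asks what the Acd defect does where p53 is intact. The effector genes differed little. In the fit of all 12 arrays 0 of the 22 tested genes were called (0.0148% of all genes tested). At an unadjusted p under 0.05, 0 of the 22 were higher either, against 0.637% of all genes tested. The median log2 difference was 0.17, beside -0.0063 over all genes tested, and all 22 differences were positive, from 0.0012 to 0.71. In 10 of the 34 genes every acd array lay above every wt array, against 7.0% of all genes, and in 0 genes every acd array lay below, against 8.35%. The 10 were Usp18, Ifit2, Oas1a, Oas2, Bst2, Trim25, Xaf1, Lgals3bp, Rtp4 and Igtp. Of the several probe sets, 2 of 3 of Trim25, 1 of 2 of Xaf1 and 1 of 2 of Rtp4 showed it. Averaged over the 34 genes, the value minus the wt mean was 0.18, 0.21 and 0.14 in the acd embryos and -0.01, -0.04 and 0.05 in the wt embryos.

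**Figure D4:**
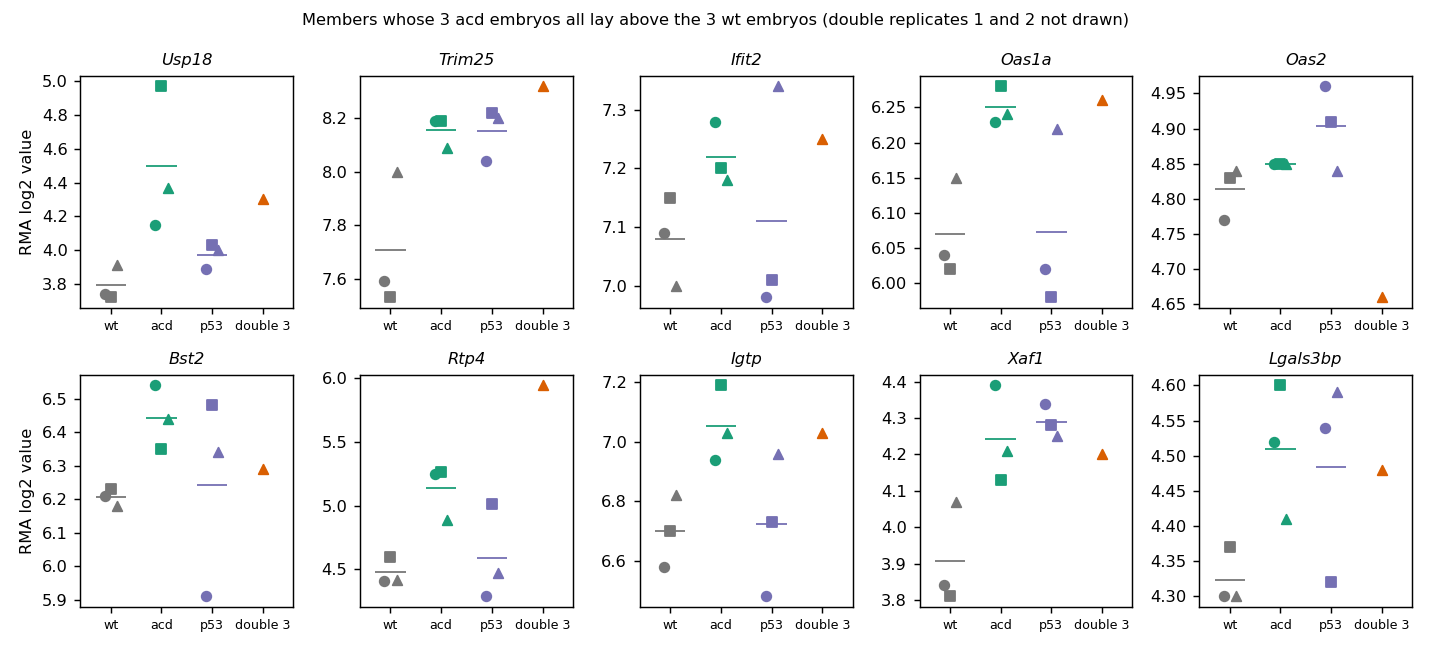
Log2 values of the 10 effector genes whose 3 acd arrays all lay above the 3 wt arrays, with the p53 arrays and double replicate 3 for scale; each panel has its own y axis, shapes give the replicate and bars the mean of 3 arrays. The gaps are small beside those of double replicates 1 and 2, which are not drawn. In Rtp4 the highest wt value was 4.6 and the lowest acd value 4.89, and in Oas2 the groups nearly touch at 4.84 and 4.85.

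This difference depended on how the spread was estimated, since the double arrays set much of the shared spread. With wt and acd arrays alone, 9 of 22 genes were higher at an unadjusted p under 0.05, against 3.85% of all genes, and without double replicates 1 and 2 the count was 6 of 22, against 2.47%. No effector gene reached an adjusted p under 0.05 in either fit (0.0148% of all genes in each). Without double replicates 1 and 2, Trim25 differed by 0.45 ± 0.11 (SE) between acd and wt embryos. In the same fit it differed by a like 0.44 ± 0.11 between p53 and wt embryos, so this shift was not particular to acd. All 3 acd embryos were male and 1 of the 3 wt embryos was, by Y-linked transcripts. That male is wt replicate 1. With sex as a term in the fit of all arrays the median turned to -0.32 for acd against wt and -0.54 for p53 against wt. All 3 p53 embryos were male too, so the wt and double arrays alone held both sexes and set that term. Among the double embryos the male was replicate 1 and the females were replicates 2 and 3. The term therefore mixes sex with the gap between the double replicates.

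The p53 embryos were compared with wt embryos in the same way. There were 0 of 22 genes called (0.0% of all genes) and 0 at an unadjusted p under 0.05 (0.333% higher over all genes). With wt and p53 arrays alone, 2 of 22 genes, Trim25 and Usp18, were higher at an unadjusted p under 0.05. Over all 13501 genes tested, 377 passed that threshold in either direction. The median log2 difference was 0.03, with 14 of 22 genes higher and a range of -0.20 to 0.44. Trim25 and Xaf1 were the 2 of 34 genes with every p53 array above every wt array, against 3.69% of all genes, and 0 genes had every p53 array below, against 3.9%. Comparisons of acd, p53 and double embryos with wt all share the wt arrays, so like values between them are not independent.

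Upstream genes of the pathway came from lists chosen with earlier results known. Of 19 interferon ligand genes 10 had a probe set, 9 of these were below the array median in all 12 arrays and 2 passed the filter. In 3 of the 10 (Ifna9, Ifnz and Ifng) double replicates 1 and 2 both lay above the other 10 arrays, against 10.3% of all genes. Over the 10 ligand genes, the median of value minus wt mean was 0.18 and 0.06 in these embryos and at most 0.05 elsewhere. Between double and p53 embryos, 0 of the 2 tested (Ifna1 and Ifnz) were called with or without double replicate 3. Against acd embryos without that array, Ifnz was called higher (0.33 ± 0.09, SE, limma adjusted p = 0.0367), beside 7.38% of all genes. Neither gene was called against wt embryos without it. Ifnb1, the beta interferon gene, ran from 3.65 to 4.48 over all arrays, with 4.44, 3.95 and 3.96 in double embryos. Of the 17 tested receptors, kinases and factors, 0 were called between double and p53 embryos with all arrays. Without double replicate 3, 4 of the 17 were called higher and 0 lower, where 6.83% of all genes were called higher: Stat2, Irf9, Irf1 and Il10rb. Irf9, the DNA-binding part of the interferon complex, read 9.52, 9.22 and 6.85 in double embryos and 6.36 to 6.65 in the other 9. Irf7, the factor that amplifies interferon production, read 6.67, 6.11 and 3.79 against 3.65 to 3.86. Stat2 read 5.89, 5.57 and 4.74 against 4.6 to 4.88. The receptor chain Ifnar1 read 8.34, 8.25 and 8.13 against 8.06 to 8.26, so its groups overlapped.

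Of the 12 tested nucleic acid sensors, 0 were called between double and p53 embryos with all arrays. Without double replicate 3, 6 were called higher and 0 lower in that comparison (6.83% of all genes higher). The 6 were Ddx58, Ifih1, Cgas, Zbp1, Eif2ak2 and Adar. Samhd1 went the other way in that fit, by -0.41 ± 0.13 (SE, limma adjusted p = 0.0653). Against acd embryos it was called lower (-0.45 ± 0.13, SE, limma adjusted p = 0.0461). Ifih1, the sensor of long double-stranded RNA, read 9.18, 9.21 and 5.52 in double embryos and 5.39 to 5.91 in the other 9. Ddx58, which codes for the RNA sensor Rig-I, read 7.24, 7.42 and 4.99 against 4.86 to 5.04. Sting1, the adaptor of cytosolic DNA sensing, read 6.64, 6.47 and 6.44, in the range of the other arrays.

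Markers of some other cell types moved with the same 2 embryos, while other lists stayed near the remaining arrays. Of 17 macrophage markers, 14 had double replicates 1 and 2 above the other 10 arrays, against 10.3% of all genes. Their mean minus the wt mean was 1.28, 0.84 and -0.25 in double embryos and -0.26 to 0.11 in the other 9 arrays. Of the 14 tested, 0 were called against p53 with all arrays and 13 were called higher without double replicate 3, against 6.83% of all genes. The neutrophil list averaged 1.46, 0.85 and 0.05, with 4 of 6 markers highest in both embryos and 1 of 2 tested (Mpo) called higher without double replicate 3. Its marker S100a8 read 7.73, 6.17 and 4.09 in double embryos, against 3.62 to 4.11 in the other 9. In 5 of the 6 neutrophil markers all of the other 10 arrays were below the array median, so that average mixes sizes with bounds. The list of visceral endoderm and liver averaged 1.58, 1.42 and 0.32, with 5 of 8 markers highest in both embryos and 4 of 8 called higher without double replicate 3. It also averaged 1.15 in p53 replicate 2, where the effector genes averaged 0.11. The list of NK and T cells averaged 0.18, -0.03 and -0.11, with 6 of 9 measured markers below the array median in all 12 arrays. In 2 of the 9, Cd3e and Gzmb, both embryos were highest, and Cd3e was 1 of 3 tested that was called higher without double replicate 3 (0.33 ± 0.08, SE, limma adjusted p = 0.0285). The list of decidua and placenta averaged 0.22, -0.10 and -0.07, with 0 of 4 markers highest in both embryos and 0 of 2 called. The primitive erythroid list averaged 0.35, 0.09 and -0.25, with 0 of 5 markers highest in both embryos. Bst2 is an effector gene and also a marker of plasmacytoid dendritic cells; it alone of the 4 markers of those cells had both embryos on top. The part of any of these cell types in the effector gene values was not tested.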

How the data were processed

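RNA of 12 whole embryos was measured on Affymetrix 3' arrays. The authors deposited log2 values made with RMA (justRMA, per the series' design text, which names BRB-ArrayTools 4.4.0 for their selection of genes). RMA gives all arrays one distribution, so a shift of the whole transcriptome cannot be seen, and the number of arrays limits precision. Of 45101 probe sets, 34945 named a single symbol in the platform annotation, and 18193 genes remained with the probe set of highest mean. Genes above the 40th percentile in at least 3 arrays (13501) were tested with limma 3.58.1 (R 4.3.3), one mean per genotype over all 12 arrays, 8 residual degrees of freedom, Benjamini-Hochberg adjustment over all of them and a threshold of 0.05. "Called" means past that threshold. No pseudocount was added.

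The effector genes, their roles, the pathway lists and the cell type lists were chosen with earlier results of these data known, so no test is made over a list. Values in every array are given for up to 3 genes per role with the largest double minus p53 difference, and other genes were named after their values were seen. The fit was tested on simulated data drawn with wt means and spreads and a shift in acd arrays only. That simulation held no group with arrays as unlike as the double arrays, so it does not cover that case. Alternatives covered normalization, filter, array weights, sex, a replicate block and each array left out.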

Additional observations from a re-analysis of the deposited data

Results flagged for a closer look

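A pair of probe sets outside the comparisons carried the same pattern as the effector genes. They were left out because each names more than 1 gene. The probe set listed under both Isg15, the ubiquitin-like protein of the interferon response, and Gm9706 read 12.13, 11.31 and 6.35 in the double embryos and 5.67 to 6.16 in the 9 embryos of the other genotypes. All 3 double values were thus above the wt embryos (5.97, 5.67 and 5.88), replicate 3 by little. The probe set listed under Trim30d and Trim30a read 5.05 and 5.21 in double replicates 1 and 2, against 3.41 to 3.80 in the other 10 arrays. Which of the named genes the signal comes from was not tested.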

How the results depend on the processing

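Counts of called genes moved mainly with the double arrays. Between double and p53 embryos 1 gene was called, with 122 under array weights, 2 with sex as a term, 28 without double replicates 1 and 2, 1770 with no filter and without double array 3 (an alternative chosen after seeing the data) and 1 to 1756 with 1 array left out, highest without double replicate 3 as in the other comparisons with double embryos. Between double and acd embryos the count was 0, with 1774, 31 (without replicates 1 and 2), 1877 and 0 to 1876 in these settings. Between double and wt embryos it was 2, with 1 under the replicate block, no filter, quantile normalization or sex, 1805 under weights, 0 with only these genotypes, 26, 1650 and 1 to 1646. The interaction gave 0, with 1 (sex), 25, 516 and 0 to 439. Between acd and wt embryos it was 2, with 1 under the block or sex and 1 to 3 with 1 array left out, and between p53 and wt 0, with 1 (sex) and 0 to 1. Medians over the effector genes without double replicates 1 and 2 were 0.09 (p53), -0.06 (acd), 0.09 (wt) and -0.04 (interaction). With 1 array left out they ran from 1.57 to 3.17, 1.42 to 3.07, 1.60 to 3.22 and 1.34 to 3.01. The lowest and highest values for acd against wt were 0.13 and 0.21, and for p53 against wt -0.01 and 0.06. With sex as a term the medians were -0.32 (acd against wt), -0.54 (p53 against wt) and 3.09 (interaction). No filter without double array 3 gave 3.10 for the interaction, and the 60th percentile filter 0.24 for acd against wt. The sex term also turned Oas1a (-0.59), Bst2 (-0.76) and Igtp (-0.32) between acd and wt. Herc6 turned sign against p53 under median centring (-0.01), quantile normalization (-0.0023), sex (-0.01), without replicates 1 and 2 (-0.18), without p53 replicate 3 (-0.01) and without double replicate 2 (-0.08). Cmpk2 turned without replicates 1 and 2 (-0.10). The cause of these changes was not tested. The replicate block left 0 effector genes called. Deviations from the genotype mean correlated over 0.1 in 7 of 18 pairs of same-numbered arrays. These included every pair among p53, acd and double arrays for replicates 2 and 3, with the highest at 0.39 (p53 and acd replicate 3). Arrays of unlike number were not compared, so whether the numbers pair the embryos cannot be told.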
